A study of Mus musculus with 16 samples.

Results

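The chemokines and chemokine receptors of the colon were followed across cell types and conditions in single-cell RNA-seq libraries from 16 mice. The members were all genes of the deposited matrix whose symbol starts with Ccl, Cxcl, Ccr, Cxcr, Cx3cl, Cx3cr, Xcl, Xcr or Ackr followed directly by a digit, leaving out Cxcl1, Cxcl2, Cxcl3 and Cxcl5. This rule reads only names, no measured value, and gave 52 of 16039 genes: 30 ligands, 18 receptors and 4 atypical receptors.

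The mice were 7-week-old female C57BL/6J animals. Uninjured mice had no DSS. The other mice drank 4% dextran sulfate sodium (DSS), a polymer that damages the colon epithelium. On day 4 of DSS they were dosed with either SZN-1326-p at 10 mg/kg, a Wnt agonist acting through chosen Frizzled receptors, or an antibody against green fluorescent protein (anti-GFP) as the control. DSS continued throughout, so both injected groups carry the injury, and no group received SZN-1326-p without DSS. The transverse colon was collected 24 h (day 5) or 48 h (day 6) after the injection, and each time had 2 uninjured mice, 3 given anti-GFP and 3 given SZN-1326-p. Each mouse gave 1 library of sorted cells, made from an epithelial and a lamina propria fraction, and counts as 1 replicate. The deposited annotation gave each cell 1 of 46 types, gathered here into 6 classes (myeloid, T lymphoid, B or plasma, epithelial, endothelial and fibroblast) beside other stroma.

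Chemokines are small secreted proteins that guide the movement of leukocytes along a gradient, and their receptors are G-protein-coupled receptors carried mainly by those leukocytes. The CC, CXC, XC and CX3C families are named for the spacing of conserved cysteines near the start of the protein. Inflammatory chemokines draw monocytes, neutrophils and activated T cells into injured tissue, homeostatic ones such as Cxcl12, Cxcl13, Ccl19 and Ccl21 place lymphocytes and dendritic cells in lymphoid tissue, and the atypical receptors (Ackr) bind chemokines and remove them without classical G-protein signalling. In the colon, macrophages that patrol the lamina propria carry Cx3cr1, and plasma cells that make IgA carry Ccr10, the receptor for the epithelial chemokine Ccl28.

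The libraries held 936 to 2033 cells per mouse and 22717 cells in all, with 9616512 to 21335421 UMIs per library, and the median cell held 6459 to 11153.5 UMIs. A level is the mean over cells of the size-factor-normalized UMI count, un-logged from the deposited values, in each mouse. The median mitochondrial share of a cell's UMIs was 19.2% to 26.1% in uninjured mice and 5.06% to 11.6% in anti-GFP mice. In SZN-1326-p mice it was 6.54% to 9.66%, except for mouse 2 at 24 h (18.9%) and mouse 3 at 48 h (24.1%). The balance of long over short genes was measured in fibroblasts only. In the 24 h set it was higher in 4 libraries (0.342 to 0.631 on a log2 scale) than in the other 12 libraries (-0.346 to 0.130). The 4 were uninjured mouse 1, SZN-1326-p mouse 1, and mice 1 and 2 of the anti-GFP arm. DSS results over all cells, fibroblasts and myeloid cells are given below with and without a term for these 4 libraries. Libraries shared 64 barcode strings. The classes carried their own defining markers in every arm, for example a sum of 125 to 185 normalized UMIs per cell for the collagen and decorin list in fibroblasts. The part of depth, mitochondrial share and these 4 libraries in the results was not tested beyond the refits given.

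Across all cells, the ligands with the most UMIs were Cxcl12 (88732), Ccl11 (51032), Ccl6 (41323), Ccl21a (37081) and Cxcl13 (22710). At the other end Ccl21c had 9 UMIs, Cxcl17 had 27, Ccr8 had 35, Ccr3 had 36, Cxcr1 had 62, Ccr4 had 77 and Ccl19 had 112. Over all cells 46 members passed the minimum level for testing, and Ccl19, Ccl21c, Ccr3, Ccr4, Ccr8 and Cxcl17 did not. Ccl21a, Ccl21c and Ccl19 have near-identical gene copies in the mouse genome, so the split of reads among them is uncertain.

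Fibroblasts were the main source of a first group of ligands. Ccl11, the eotaxin that attracts eosinophils, came to 94.5% from fibroblasts in uninjured mice, 95.4% in anti-GFP mice and 96.6% in SZN-1326-p mice, all as shares of that gene's normalized UMIs. Cxcl12, the ligand of Cxcr4, came to 91.0%, 85.5% and 89.2% from fibroblasts in the same order. Fibroblast shares of Cxcl13, the B-cell attractant read by Cxcr5, were 88.6%, 98.5% and 99.1%. Shares of Cxcl14 were 93.7%, 93.1% and 94.9%.

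Which fibroblasts carried these ligands differed between the arms, as did the fibroblast types present. In uninjured mice BaseCryptFB1 gave 73.9% of Ccl11 and 65.1% of Cxcl12. In anti-GFP mice InjuryCryptFB2 and InjuryCryptFB1 gave 43.3% and 25.5% of Ccl11, and 32.4% and 18.2% of Cxcl12. BaseCryptFB1 made up 49.7% to 55.8% of fibroblasts in uninjured mice and 0% in each anti-GFP mouse. InjuryCryptFB2 made up 0.662% to 5.03% and 22.3% to 31.5%. The type names rest on clustering of the same cells' genes, so that a shift between types that exist in 1 condition cannot be told apart from a change of state within 1 kind of cell.

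A second group had its highest level per cell in a myeloid type. Over all arms pooled, Ccl12, which like Ccl2 and Ccl7 signals through Ccr2, was highest in macrophages (3.89 normalized UMIs per cell), as was Ccl7 (7.25), Ccl8 (11.5) and Ccl2 (5.45). By share of all normalized UMIs over the pooled arms, myeloid cells gave 91.4% of Ccl12 but 53.4% of Ccl7, 41.7% of Ccl8 and 40.7% of Ccl2, and fibroblasts gave 45.3% of Ccl7, 57.2% of Ccl8 and 52.4% of Ccl2. Ccl3 and Ccl4, macrophage inflammatory proteins, were highest in the type named ActNeutrophil, at 20.7 and 39.6, with macrophages next at 5.15 (Ccl3) and 9.91 (Ccl4). Ccl22 and Ccl17, which attract Ccr4-bearing T cells, were highest in ActDendri cells, at 22.6 for Ccl22 and 5.59 for Ccl17. The interferon-inducible Cxcr3 ligands Cxcl9 and Cxcl10 were highest in InjuryMono1 cells, at 7.72 for Cxcl9 and 11.4 for Cxcl10.

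Other ligands had various sources, some of them shared. Ccl21a, which leads Ccr7-bearing cells into lymphatic vessels, reached 167 normalized UMIs per cell in the lymphatic endothelium (LymphEndo). Xcl1, the ligand of Xcr1 on cross-presenting dendritic cells, was highest in TcellCD8_NK cells (8.45) and came to 94.9% to 97.8% from T lymphoid cells in the 3 arms. Ccl28 was highest in AltEnterocyte cells (0.823) and came to 97.5%, 91.8% and 95.3% from epithelium. Ccl20, the Ccr6 ligand, was highest in AltEnteroPC cells (0.277), and Ccl25, the Ccr9 ligand, in EnteroEnd1 cells (0.339). Ccl6, a CC chemokine found in rodents, was high both in ActNeutrophil cells (24.9) and in the Goblet2 type of the epithelium (21.8). The sparse ligands peaked at 0.455 for Ccl1 (TcellCD8_NK), 0.324 for Ccl19 (VascSmMuscle1), 0.162 for Ccl27a (MuralLikeFB) and 0.129 for Cxcl17 (LymphEndo).

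Some receptors were far higher in a single type than in the next, and others were shared between types. Ccr10 reached 8.00 normalized UMIs per cell in Plasma_IgA cells, against 0.0393 in the next type. Cxcr2, the neutrophil receptor for the Cxcl1 family, reached 30.6 in ActNeutrophil cells, against 0.160 in the next type, and Cxcr1 reached 0.602 in the same cells. Ccr2, which brings monocytes out of the blood, was highest in InjuryMono2 (11.4) and InjuryMono1 (9.73). Cx3cr1 was highest in macrophages (6.45), with InjuryMono2 next at 1.19. Ccr7 was highest in ActDendri cells (40.6), followed by the Bcell1_IgM type (7.61).

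Lymphocyte receptors split between T and B types. Cxcr6 and Cxcr3, both found on effector T cells, were highest in Tcell2, at 2.23 for Cxcr6 and 0.780 for Cxcr3. Ccr9, the gut-homing receptor, was 0.684 in Tcell2 and 0.535 in Dendritic cells. Cxcr5 (3.98), Ccr6 (2.12) and Cxcr4 (10.3) were each highest in Bcell1_IgM. Xcr1 was highest in Dendritic cells (0.883). The sparse receptors peaked low, Ccr4 at 0.314 and Ccr8 at 0.127 in TcellCD8_NK cells and Ccr3, the eotaxin receptor, at 0.131 in ActNeutrophil cells.

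The atypical receptors were each highest in a stromal or endothelial type, and Ackr4 was next highest in an epithelial type. Ackr1, which carries chemokines across venules, was highest in VascEndo (1.27), and Ackr2, a scavenger of inflammatory CC chemokines, in LymphEndo (2.29). Ackr3, a scavenger of Cxcl12, was high in LymphEndo (1.75), BaseCryptFB1 (1.70) and VascEndo (1.44). Ackr4, a scavenger of Ccl21 and Ccl25, was highest in BaseCryptFB2 (1.19) and Tuft cells (0.730). These levels compare cell types within a gene, with all cells pooled, and carry no test.

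**Figure D1:**
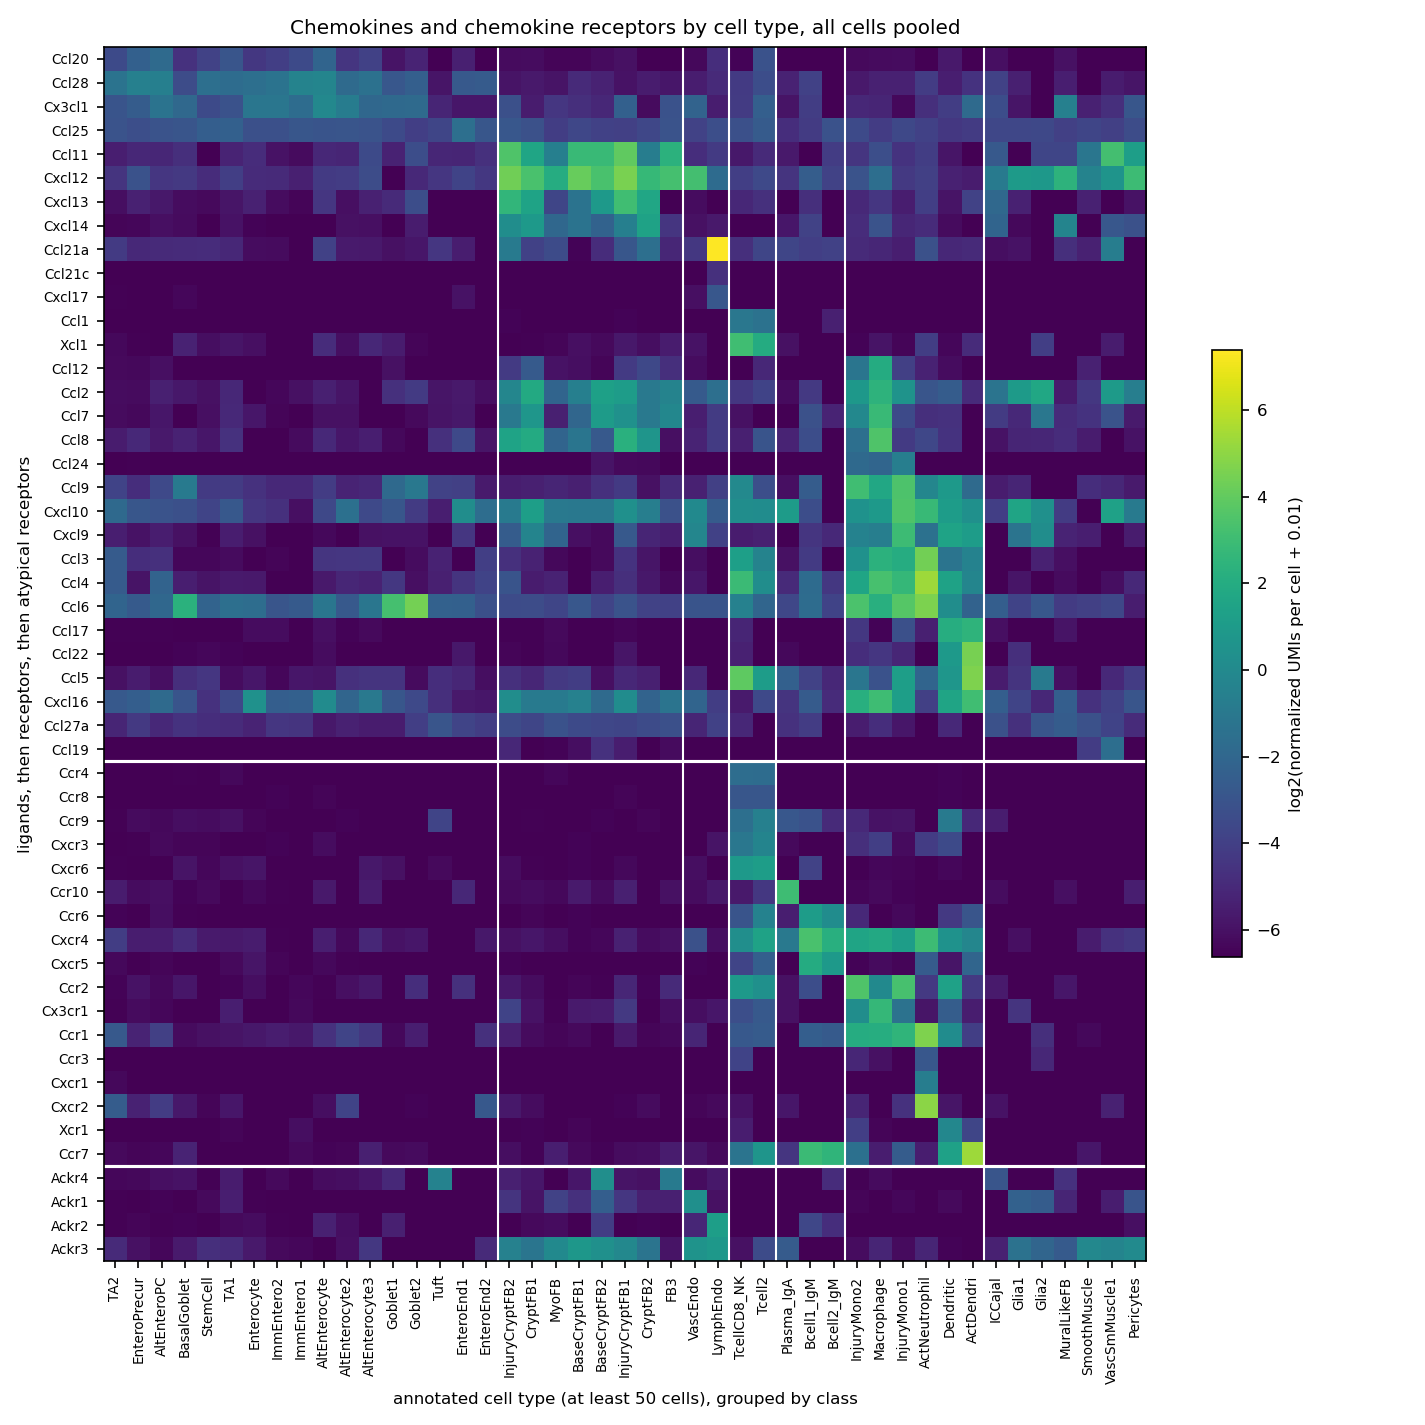
Rows are members (ligands, receptors, atypical receptors) and columns are annotated cell types with at least 50 cells, grouped by class; colour gives log2 of the mean normalized UMIs per cell plus 0.01 over all cells of all mice. Ccl21a stands out in LymphEndo (167), Ccr10 in Plasma_IgA (8.00) and Cxcr2 in ActNeutrophil (30.6), while Cxcl12 is spread over the fibroblast types.

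The regulatory sequence next to 4 ligands is shown because these ligands carry the contrasts below: Cxcl9 and Cxcl10 in fibroblasts, Cxcl12 between fibroblast types, and Cx3cl1 in the epithelium. Each is the 250 bases before the gene's start, from RefSeq (GRCm38.p6), 5′ to 3′ on the gene's strand, with motif matches in capitals. Cxcl9 lies at chr5:92328080-92328329 and Cxcl10 at chr5:92348890-92349139, both on the minus strand. Cxcl12 lies at chr6:117168285-117168534 and Cx3cl1 at chr8:94771930-94772179, both on the plus strand. The GENCODE annotation starts Cx3cl1 at 94772009, so that by it part of this window lies within the gene.
Cxcl9: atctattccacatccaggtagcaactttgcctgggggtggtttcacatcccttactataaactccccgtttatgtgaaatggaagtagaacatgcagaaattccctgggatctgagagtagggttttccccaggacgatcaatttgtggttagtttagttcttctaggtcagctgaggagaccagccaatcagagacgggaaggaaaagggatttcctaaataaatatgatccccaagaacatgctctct
Cxcl10: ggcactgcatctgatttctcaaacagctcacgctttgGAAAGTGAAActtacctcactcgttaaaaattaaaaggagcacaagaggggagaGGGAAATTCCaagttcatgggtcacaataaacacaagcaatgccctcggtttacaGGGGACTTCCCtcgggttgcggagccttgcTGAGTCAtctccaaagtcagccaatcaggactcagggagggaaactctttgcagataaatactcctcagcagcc
Cxcl12: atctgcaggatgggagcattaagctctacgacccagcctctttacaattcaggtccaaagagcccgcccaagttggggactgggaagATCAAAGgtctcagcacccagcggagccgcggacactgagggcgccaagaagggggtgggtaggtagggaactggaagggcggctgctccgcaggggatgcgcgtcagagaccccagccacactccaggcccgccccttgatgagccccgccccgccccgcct
Cx3cl1: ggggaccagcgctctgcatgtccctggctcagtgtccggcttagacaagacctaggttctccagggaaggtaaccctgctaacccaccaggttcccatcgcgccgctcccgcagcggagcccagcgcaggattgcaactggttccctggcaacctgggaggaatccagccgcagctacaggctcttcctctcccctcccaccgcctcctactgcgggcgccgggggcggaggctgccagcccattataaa

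The motifs searched on both strands were the NF-kappa-B site, the interferon-stimulated response element (GAAA, any 2 bases, GAAA), the interferon-gamma-activated site TTCNNNGAA, the AP-1 site TGANTCA and the TCF/LEF site CTTTGAT, the last being the site read by Wnt signalling. Cxcl10 held 1 interferon-stimulated element, 3 NF-kappa-B matches, of which 2 overlap, and 1 AP-1 match. Cxcl12 held 1 TCF/LEF match, on the reverse strand. Cxcl9 and Cx3cl1 held 0 of these letters in this window, which says nothing about the factors. Of 32851 mouse promoters of this length, 7.25% held the NF-kappa-B match, 2.98% the interferon-stimulated element, 7.02% TTCNNNGAA, 6.75% TGANTCA and 3.21% CTTTGAT. RefSeq promoter entries matched 39 of the 52 members.

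A first comparison asked what DSS injury does to the members, as anti-GFP minus uninjured mice over both times. Over all cells 36 of 46 members tested passed limma's test, 32 higher and 4 lower, where 47.7% of all genes tested passed (24.6% higher and 23.2% lower). With a term for the 4 libraries with more long genes, 37 passed. The members' median log2 change was 1.81, and that of all genes tested was 0.01. Here and below, a member near 0 in uninjured mice could enter the test through mice given DSS, which raises such medians. The largest were Cxcr2 (6.35), Ccl4 (4.40), Cxcl9 (4.36), Ccr2 (4.29), Ccr7 (4.05) and Ccr1 (4.04). The 4 lower members were Ccr10 (-2.24), the scavenger Ackr4 (-1.12), Ccl28 (-0.67) and Ccl27a (-0.56), the last with an adjusted p of 0.143 by limma-voom.

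These whole-sample changes move with the makeup of the cells. Myeloid cells were 3.50% to 3.88% of cells in uninjured mice (median 3.74%) and 19.5% to 42.2% in anti-GFP mice (median 29.5%). Epithelial cells were 56.8% to 73.3% and 20.5% to 43.7%. Fewer cells of a type and less RNA per cell cannot be told apart in the level over all cells, so the members were then followed within classes. Of the members not called over all cells, Cxcl12 differed by 0.15 (limma adjusted p = 0.651), with 1.92 to 4.13 normalized UMIs per cell in uninjured mice and 1.72 to 5.24 in anti-GFP mice.

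Within fibroblasts the inflammatory ligands were higher after DSS. Of 23 members tested, 12 were higher and 1 lower by limma's test, where 22.5% of all genes tested passed (12.4% higher and 10.1% lower). With a term for the same 4 libraries 13 again passed. The median change was 0.89 on the log2 scale, against 0.01 over all genes tested. That median includes Ccl4 and Ccl12, which had 0 and 2 UMIs in uninjured fibroblasts. The members that rose were Ccl2, Ccl4, Ccl7, Ccl8, Ccl11, Ccl12, Cxcl9, Cxcl10, Cxcl13, Cxcl16, Cx3cl1 and the receptor Cx3cr1.

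The genes of Ccl2, Ccl7, Ccl11, Ccl12 and Ccl8 lie side by side in that order on mouse chromosome 11 (mm10), from 82035571, the start of Ccl2, to 82116799, the end of Ccl8. Fibroblast Ccl2 was 0.0796 and 0.253 in the uninjured mice at 24 h, 0.180 and 1.06 at 48 h, and 1.00 to 4.14 (median 2.39) in the 6 anti-GFP mice. Only the highest uninjured mouse reached the lowest anti-GFP mouse. The log2 change was 3.10 ± 0.57 (SE), with a limma adjusted p of 0.00277.

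Fibroblast Ccl7 was 0.160, 0.158, 0.272 and 0.302 in the 4 uninjured mice and 0.845 to 1.95 (median 1.33) in anti-GFP mice. The groups did not overlap, and the change was 2.57 ± 0.23 (SE; limma adjusted p = 4.07e-07). Ccl8 was 0.152, 0.327, 0.234 and 0.208 in uninjured mice and 1.07 to 4.17 (median 2.54) in anti-GFP mice. The groups were apart again, by 3.41 ± 0.28 (SE; limma adjusted p = 2.82e-07). Ccl12 rested on 2 UMIs in uninjured fibroblasts, 1 in each of 2 mice, and was 0.00719 to 0.187 in anti-GFP mice. Its limma adjusted p was 0.000704, and 0.1747 with limma-voom. The ratio of its raw UMIs per cell, without size factors, was 151 (95% interval 41.4 to 1249, counting error only). The pooled normalized levels of Ccl12 were 0.00225 in uninjured and 0.09998 in anti-GFP fibroblasts.

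Ccl11 shifted less. It was 3.12, 5.91, 4.80 and 5.09 in uninjured and 5.78 to 13.6 (median 8.09) in anti-GFP fibroblasts, so that the groups met at 1 mouse, with a change of 0.89 ± 0.22 (SE; limma adjusted p = 0.00587).

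The Cxcr3 ligands moved in the same class. Fibroblast Cxcl9 was 0.00862, 0.00303, 0.00333 and 0.0532 in uninjured mice and 0.178 to 0.918 (median 0.345) in anti-GFP mice. The groups did not overlap, and the change was 4.15 ± 0.51 (SE; limma adjusted p = 0.000103). Cxcl10 was 0.210, 0.337, 0.202 and 0.740 in uninjured mice and 0.863 to 2.11 (median 1.39) in anti-GFP mice, apart by 2.07 ± 0.39 (SE; limma adjusted p = 0.00215). With limma-voom on UMI sums the adjusted p was 0.0646 for Cxcl9.

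Cxcl13 differed widely between mice of 1 arm. It was 0.553, 0.0277, 0.442 and 0.210 in uninjured fibroblasts and 0.994 to 9.73 (median 2.66) in anti-GFP fibroblasts. The groups did not overlap, with a change of 3.90 ± 0.67 (SE; limma adjusted p = 0.00206). Cx3cl1, the membrane-bound ligand of Cx3cr1, was 0.0104 to 0.0293 in uninjured fibroblasts and 0.0495 to 0.103 in anti-GFP fibroblasts, apart by 1.54 ± 0.29 (SE; limma adjusted p = 0.000624).

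The scavenger Ackr3 was the 1 member that fell in fibroblasts. It was 0.730, 1.69, 1.67 and 1.65 in uninjured and 0.446 to 0.966 (median 0.787) in anti-GFP fibroblasts, a change of -0.88 ± 0.25 (SE; limma adjusted p = 0.0182). Uninjured mouse 1 at 24 h lay within the anti-GFP range. Leaving out uninjured mouse 2 of the 24 h set gave a limma adjusted p of 0.116, and leaving out mouse 1 of the 48 h set gave 0.0571. Its ligand Cxcl12 was 10.6, 11.7, 13.8 and 13.3 in uninjured and 6.04 to 17.2 (median 12.3) in anti-GFP fibroblasts, a change of -0.10 ± 0.20 (SE) that did not pass limma's test (adjusted p = 0.766).

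The calls of Cxcl16, the Cxcr6 ligand, and of Cx3cr1 hung on single libraries. Cxcl16 was 0.310 to 0.567 in uninjured and 0.528 to 1.08 in anti-GFP fibroblasts (0.72 ± 0.24, SE; limma adjusted p = 0.0352). Its call was lost without any 1 of 7 libraries, the 3 uninjured mice other than mouse 2 at 24 h and anti-GFP mice 1 and 3 at 24 h and 1 and 2 at 48 h (adjusted p 0.05765 to 0.133). Ccl4 had 0 UMIs in uninjured and 203 in anti-GFP fibroblasts, at least 36.6-fold higher per cell against a floor of 3 UMIs over the group (limma adjusted p = 0.00124, and 0.199 with limma-voom). Cx3cr1 was 0 to 0.0174 in uninjured and 0.00678 to 0.172 in anti-GFP fibroblasts (limma adjusted p = 0.0410), and lost its call without any uninjured mouse, anti-GFP mouse 3 at 48 h or SZN-1326-p mouse 3 at 48 h (0.0505 to 0.161), and with limma-voom (0.230).

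Markers of other lineages were measured in the same fibroblasts. The monocyte and macrophage list, all 7 of 7 genes detected, summed to 5.82 to 9.63 normalized UMIs per cell in uninjured fibroblasts and 6.34 to 11.4 in anti-GFP ones. The neutrophil list summed to 0.465 to 1.13 and 0.779 to 2.08, with S100a9 and Retnlg at 0 in uninjured mice. When cells with at least 2 markers of another lineage, from a subset of the markers, were left out (4.16% of all cells), 11 members were called in fibroblasts, Ccl4 and Cx3cr1 fell below the minimum level, and Cxcl16 had a limma adjusted p of 0.0534.

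In myeloid cells Ccl2 and Ccl7 fell, while Ccl8 and Ccl12 did not pass. Of 35 members tested 13 were higher and 5 lower by limma's test, where 31.2% of all genes tested passed (18.6% higher and 12.6% lower). With a term for the 4 libraries 22 passed in place of 18. The median change was 0.76 on the log2 scale, against 0.01 over all genes tested. The 5 that fell were Ccl2, Ccl7, Cxcl16, Cx3cr1 and Xcr1.

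Myeloid Ccl2 was 1.97, 2.73, 3.41 and 6.503 in uninjured and 1.02 to 2.29 (median 1.79) in anti-GFP mice, a change of -0.98 ± 0.21 (SE; limma adjusted p = 0.0013). The lowest uninjured mouse lay within the anti-GFP range, and with limma-voom on UMI sums the adjusted p was 0.134. Ccl7 was 3.47, 1.56, 4.14 and 6.43 in uninjured and 0.986 to 1.97 (median 1.45) in anti-GFP mice, a change of -1.33 ± 0.26 (SE; limma adjusted p = 0.000879). Again 1 uninjured mouse lay within the anti-GFP range. Ccl8 differed by -0.11 (limma adjusted p = 0.922) and Ccl12 by -1.37 ± 0.53 (SE; 0.0751).

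Cxcl16 was 3.86, 7.14, 6.03 and 6.37 in uninjured and 2.75 to 4.57 (median 3.40) in anti-GFP myeloid cells (-0.71 ± 0.18, SE; limma adjusted p = 0.00373). Cx3cr1 was 6.27, 6.20, 5.87 and 4.74 in uninjured and 0.626 to 1.87 (median 1.43) in anti-GFP myeloid cells. The groups were far apart for Cx3cr1, with a change of -2.30 ± 0.23 (SE; limma adjusted p = 1.42e-07). Xcr1 was 0.551, 0.646, 0.196 and 0.171 in uninjured and 0 to 0.232 in anti-GFP myeloid cells (-2.06 ± 0.53, SE; limma adjusted p = 0.00654, and 0.272 with limma-voom). The arms overlapped for Cxcl16 and Xcr1.

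The difference between the classes was tested directly in each mouse, as the DSS change in fibroblasts minus that in myeloid cells, a test added after the data were seen. It passed for 9 members, where 26.3% of all genes tested passed. Of the members kept in both classes it did not pass for Ccl3, Ccl4, Ccl5, Ccl11, Ccl21a, Ccl25, Cxcl9, Cxcl10, Cxcl12 and Cxcl14. The difference was 4.08 ± 0.44 (SE) for Ccl2 (limma adjusted p = 4.08e-05), 3.89 ± 0.30 for Ccl7 (4.21e-06), 3.52 ± 0.60 for Ccl8 (0.000992) and 1.43 ± 0.32 for Cxcl16 (0.00519). The fibroblast share of Ccl2 was 44.0% in uninjured, 51.5% in anti-GFP and 55.01% in SZN-1326-p mice, and that of Ccl7 was 26.1%, 44.7% and 50.7%.

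**Figure D2:**
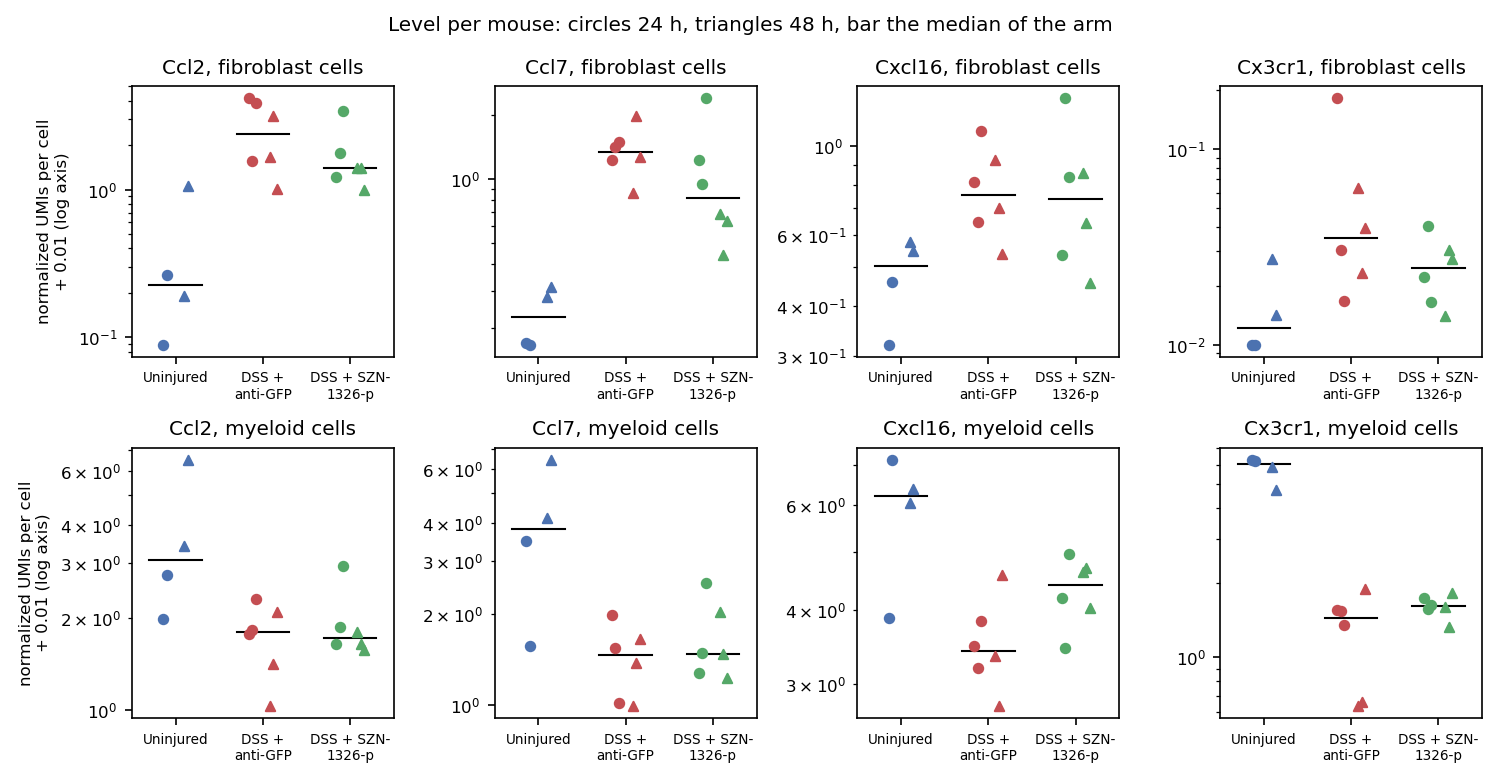
Ccl2, Ccl7, Cxcl16 and Cx3cr1 in each mouse, fibroblasts above and myeloid cells below, as mean normalized UMIs per cell plus 0.01 on a log axis; circles are 24 h, triangles 48 h and bars the median of the arm. Ccl2 has an anti-GFP median of 2.39 in fibroblasts, above all 4 uninjured mice (0.0796 to 1.06), while in myeloid cells its anti-GFP median of 1.79 lies below all 4 uninjured mice.

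The receptors of monocytes and neutrophils rose within the myeloid class. Ccr2 was 1.55, 2.32, 1.31 and 1.95 in uninjured and 4.86 to 8.34 (median 7.60) in anti-GFP myeloid cells. The groups did not overlap, and the change was 1.99 ± 0.17 (SE; limma adjusted p = 1.31e-08). Ccr1, a receptor for Ccl3 among others, was 2.80 to 4.80 in uninjured and 6.93 to 10.0 in anti-GFP mice (1.25 ± 0.16, SE; limma adjusted p = 3.6e-06). The groups were apart for Ccr1 too.

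Cxcr2 was 2.65 in uninjured mouse 1 at 24 h, 0 in the other 3 uninjured mice and 3.39 to 8.68 (median 5.22) in anti-GFP mice (7.03 ± 1.19, SE; limma adjusted p = 0.00114). Cxcr1 had 0 UMIs in uninjured and 43 in anti-GFP myeloid cells, at least 8.36-fold higher per cell against a floor of 3 UMIs over the group (limma adjusted p = 4.76e-06, and 0.3585 with limma-voom). Ccr7, which takes dendritic cells to lymph nodes, was 0.0443 to 0.0991 in uninjured and 1.11 to 1.73 (median 1.19) in anti-GFP mice. The gap for Ccr7 was wide, at 4.09 ± 0.23 (SE; limma adjusted p = 1.13e-11). Ccr9 rested on 2 UMIs in 1 uninjured mouse (ratio of raw UMIs per cell 12.0, 95% interval 3.27 to 99.5, counting error only). It lost its call without uninjured mouse 1 at 24 h (limma adjusted p = 0.0536), and with limma-voom (0.352).

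Among myeloid ligands, Ccl4 was 3.08, 4.80, 2.18 and 3.34 in uninjured and 5.02 to 14.3 (median 12.0) in anti-GFP mice (1.60 ± 0.36, SE; limma adjusted p = 0.00401). Ccl6 was 2.62 to 7.92 and 9.07 to 15.8 (1.33 ± 0.23, SE; limma adjusted p = 0.00018), and Ccl9, a relative of Ccl6, was 2.35 to 5.04 and 5.36 to 8.08 (0.76 ± 0.17, SE; limma adjusted p = 0.00123). The groups did not overlap for these 3. Ccl5, the T-cell attractant, was 0.0226 to 0.485 and 0.322 to 2.26 (2.80 ± 0.61, SE; limma adjusted p = 0.00481, and 0.2195 with limma-voom).

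Ccl3 and Ccl22 passed but hung on single libraries. Ccl3 was 1.78 to 3.85 in uninjured and 3.17 to 7.45 in anti-GFP myeloid cells (limma adjusted p = 0.0318). Its call was lost without any 1 of uninjured mouse 2 at 24 h, uninjured mouse 1 at 48 h, or anti-GFP mice 1 and 2 at either time (0.0599 to 0.146), and with limma-voom (0.467). Ccl22 was 0 to 0.585 in uninjured and 0.220 to 1.501 in anti-GFP mice (3.13 ± 0.98, SE; limma adjusted p = 0.0333), and was lost without either uninjured mouse at 24 h or anti-GFP mice 1 or 2 at either time (0.0521 to 0.0843), and with limma-voom (0.1935). Cxcl9 and Cxcl10 missed the threshold in myeloid cells, at 2.74 ± 1.04 and 1.90 ± 0.66 (SE; limma adjusted p = 0.0696 and 0.0518).

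The makeup of the myeloid class moved with these results. Macrophages were 70.7% to 78.4% of myeloid cells in uninjured and 6.42% to 20.0% in anti-GFP mice. InjuryMono2 cells were 7.84% to 14.3% and 23.2% to 40.8%, and ActNeutrophil cells were at most 4.08% and then 9.87% to 25.1%. The neutrophil marker list summed to 0.207 to 45.1 normalized UMIs per cell in uninjured and 115 to 548 in anti-GFP myeloid cells, and the monocyte and macrophage list to 168 to 279 and 75.5 to 143.

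Within the Macrophage type alone, Ccl2, Ccl7, Cxcl16 and Cx3cr1 did not pass, and Xcr1 was below the minimum level. Of 28 members tested 2 were higher and 1 lower by limma's test, where 2.41% of all genes passed, and the members' median change was 0.14 against -0.10 over all genes tested. Ccl2 was 2.65, 3.59, 4.22 and 7.67 in uninjured and 3.63 to 7.53 (median 5.55) in anti-GFP macrophages (0.39 ± 0.25, SE; limma adjusted p = 0.5261). Cx3cr1 was 7.78, 8.29, 7.37 and 5.67 in uninjured and 2.49 to 8.37 (median 6.49) in anti-GFP macrophages (-0.31 ± 0.21, SE; limma adjusted p = 0.564). Both overlapped between the arms. Cx3cr1 still came mostly from macrophages after DSS, with 92.6% of its normalized UMIs in uninjured and 60.3% in anti-GFP mice.

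The macrophage ligands that passed were Ccl3 and Ccl4. Ccl3 was 3.63, 2.502, 1.99 and 4.38 in uninjured and 5.66 to 7.70 (median 6.49) in anti-GFP macrophages (1.13 ± 0.23, SE; limma adjusted p = 0.00352). Ccl4 was 1.30, 6.59, 2.502 and 3.09 in uninjured and 11.4 to 31.7 (median 12.7) in anti-GFP macrophages (2.46 ± 0.46, SE; limma adjusted p = 0.0188). Neither overlapped. Leaving out uninjured mouse 1 of the 48 h set took both over the threshold (0.0864 for Ccl3 and 0.108 for Ccl4), as did leaving out uninjured mouse 2 of the 24 h set for Ccl3 (0.05002) and of the 48 h set for Ccl4 (0.0636). The eosinophil attractant Ccl24 was 0.242 to 0.556 in uninjured and 0 to 0.412 in anti-GFP macrophages (-3.03 ± 0.81, SE; limma adjusted p = 0.032). Ccl24 lost its call without any 1 of 8 libraries, the 4 uninjured mice and anti-GFP mice 2 and 3 at either time (0.0504 to 0.156). Ccl8 was 1.03 to 3.96 and 5.02 to 21.5, without overlap, and missed the threshold (2.45 ± 0.56, SE; limma adjusted p = 0.052).

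In the fibroblast type CryptFB1, present in all arms, 8 of 16 members tested were higher and 2 lower, where 15% of all genes passed. The members' median change was 2.20 on the log2 scale, against 0.05 over all genes tested. That median includes Cxcl9 and Ccl12, each with 0 UMIs in uninjured CryptFB1 cells. Ccl2 was 0, 0, 0.0168 and 0.148 in uninjured and 0.838 to 12.3 (median 5.34) in anti-GFP CryptFB1 cells, apart by 7.46 ± 1.00 (SE; limma adjusted p = 0.000644). Ccl8 rested on 2 UMIs in 1 uninjured mouse and was 2.10 to 10.3 (median 6.15) in anti-GFP mice. Its ratio of raw UMIs per cell, without size factors, was 1012 (95% interval 280 to 8356, counting error only). The pooled normalized levels of Ccl8 were 0.0185 in uninjured and 5.79 in anti-GFP CryptFB1 cells. Every anti-GFP mouse was above every uninjured mouse for both genes.

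Ccl11 was 0.0315, 0, 0 and 0.0443 in uninjured and 2.37 to 7.12 (median 4.77) in anti-GFP CryptFB1 cells (7.67 ± 0.67, SE; limma adjusted p = 2.3e-05). Cxcl9 had 0 UMIs in uninjured CryptFB1 cells and was 0.155 to 3.10 (median 1.03) in anti-GFP ones, at least 63.1-fold higher per cell against a floor of 3 UMIs over the group. Cxcl10 was 0.0443 to 0.310 and 1.37 to 6.91 (5.05 ± 0.67, SE; limma adjusted p = 0.000567). The arms were apart for these 3 ligands too. Ccl7 (5.08 ± 0.75, SE; limma adjusted p = 0.00111) and Cxcl13 (3.54 ± 0.23, SE; limma adjusted p = 7.53e-11) also rose. Ccl12 had 0 UMIs in uninjured CryptFB1 cells and was at least 18.7-fold higher in anti-GFP ones.

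Cxcl12 and Ccl6 fell in CryptFB1. Cxcl12 was 10.1, 16.2, 15.3 and 14.4 in uninjured and 5.40 to 14.6 (median 6.59) in anti-GFP cells (-0.85 ± 0.23, SE; limma adjusted p = 0.0141). The groups overlapped, and the call was lost without uninjured mouse 2 at 24 h (0.0651), uninjured mouse 1 at 48 h (0.0635) or anti-GFP mouse 2 at 48 h (0.0513). The monocyte and macrophage list in CryptFB1 summed to 4.40 to 8.60 in uninjured, with Csf1r and C1qc at 0, and to 7.10 to 12.7 in anti-GFP mice, and the part of such RNA in these changes was not tested.

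BaseCryptFB2 showed an overlapping set. Of 20 members tested 7 were higher and 3 lower, where 7.56% of all genes passed, with a median of 0.96 against 0.09 over all genes tested. Here Cxcl12 rose, from 4.23, 3.28, 5.46 and 5.44 in uninjured to 5.96 to 24.8 (median 11.9) in anti-GFP cells (1.32 ± 0.23, SE; limma adjusted p = 0.000165), without overlap. Ccl7 was 0.0342 to 1.17 and 1.97 to 3.29 (3.19 ± 0.25, SE; limma adjusted p = 3.74e-11). Ccl2 was 0.0409 to 1.76 and 1.27 to 10.8 (3.92 ± 0.82, SE; limma adjusted p = 0.0153), with an adjusted p of 0.0595 without uninjured mouse 1 at 24 h.

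Cxcl13 was 0 to 0.191 in uninjured and 0.182 to 28.3 (median 0.828) in anti-GFP BaseCryptFB2 cells (limma adjusted p = 0.0138, and 0.0603 without uninjured mouse 1 at 24 h or 0.0538 without uninjured mouse 1 at 48 h). Ccl19, the other Ccr7 ligand, had 0 UMIs in uninjured cells and was at least 3.19-fold higher (limma adjusted p = 0.0157, and 0.0515 without anti-GFP mouse 3 at 24 h or 0.0595 without uninjured mouse 1 at 48 h). Ccl8 rested on 2 uninjured UMIs (ratio of raw UMIs per cell 33.0, 95% interval 8.79 to 278, counting error only). Ccl11 passed at 0.70 ± 0.21 (SE; limma adjusted p = 0.0321) and lost its call without any 1 of 6 libraries, uninjured mouse 1 at 24 h, both uninjured mice at 48 h, anti-GFP mouse 3 at 24 h and anti-GFP mice 2 and 3 at 48 h (0.0544 to 0.173).

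The 3 members that fell in BaseCryptFB2 were all atypical receptors. Ackr4 was 1.56, 2.05, 3.07 and 2.38 in uninjured and 0.204 to 1.71 (median 0.599) in anti-GFP cells (-1.95 ± 0.47, SE; limma adjusted p = 0.0202). Ackr3 was 1.32, 2.58, 2.94 and 2.48 in uninjured and 0.407 to 1.57 (median 0.926) in anti-GFP cells (-1.36 ± 0.36, SE; limma adjusted p = 0.0206). Each overlapped at 1 uninjured mouse. Calls were lost without uninjured mouse 1 at 48 h (0.0841 for Ackr4 and 0.0990 for Ackr3) or mouse 2 at 24 h (0.0636 and 0.0838), for Ackr4 also without uninjured mouse 1 at 24 h (0.0720) and for Ackr3 without anti-GFP mouse 1 at 48 h (0.0528). Ackr2 was 0.0409 to 0.169 in uninjured mice and had 3 UMIs in all anti-GFP cells of this type (limma adjusted p = 0.00826). Its uninjured to anti-GFP ratio of raw UMIs per cell was 8.37 (95% interval 2.54 to 43.4, counting error only). The pooled normalized levels of Ackr2 were 0.141 in uninjured and 0.00866 in anti-GFP cells. The monocyte and macrophage list in these cells summed to 1.80 to 2.87, with C1qa at 0, and to 5.99 to 9.18, with Ly6c2 at 0.

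In MyoFB, the myofibroblasts, 3 of 16 members tested were higher, where 7.73% of all genes passed. Cxcl12 was 1.23 to 1.99 in the 3 uninjured mice with enough cells and 1.96 to 6.55 in anti-GFP mice (1.56 ± 0.24, SE; limma adjusted p = 7.68e-05). Cxcl16 was 0.121 to 0.144 and 0.381 to 1.03 (2.13 ± 0.42, SE; limma adjusted p = 0.00242). Ccl8 rested on 1 uninjured UMI (ratio of raw UMIs per cell 44.8, 95% interval 7.82 to 1791, counting error only).

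The DSS change was set between types in the same way as between classes. CryptFB1 minus Macrophage passed for 7 members, where 1.07% of all genes passed. It was 7.07 ± 0.81 (SE) for Ccl2 (limma adjusted p = 0.00143), 8.30 ± 1.51 for Ccl11 (0.0214) and 6.46 ± 1.07 for Cxcl9 (0.0129). Of the members kept in both types it did not pass for Ccl5, Ccl6, Ccl12, Ccl25, Ccl27a, Cxcl12, Cxcl14 and Cxcl16. BaseCryptFB2 minus Macrophage passed for 0 members by limma, where 0.319% of genes passed, with 3.54 for Ccl2 (adjusted p = 0.0935). CryptFB1 minus BaseCryptFB2 passed for 3 members, where 1.46% of genes passed. It was -2.16 ± 0.37 (SE) for Cxcl12 (limma adjusted p = 0.0146) and 6.97 ± 0.66 for Ccl11 (0.000612). Here the members kept in both types that did not pass were Ackr3, Ccl2, Ccl6, Ccl7, Ccl25, Ccl27a, Cxcl10, Cxcl13, Cxcl14 and Cxcl16.

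**Figure D3:**
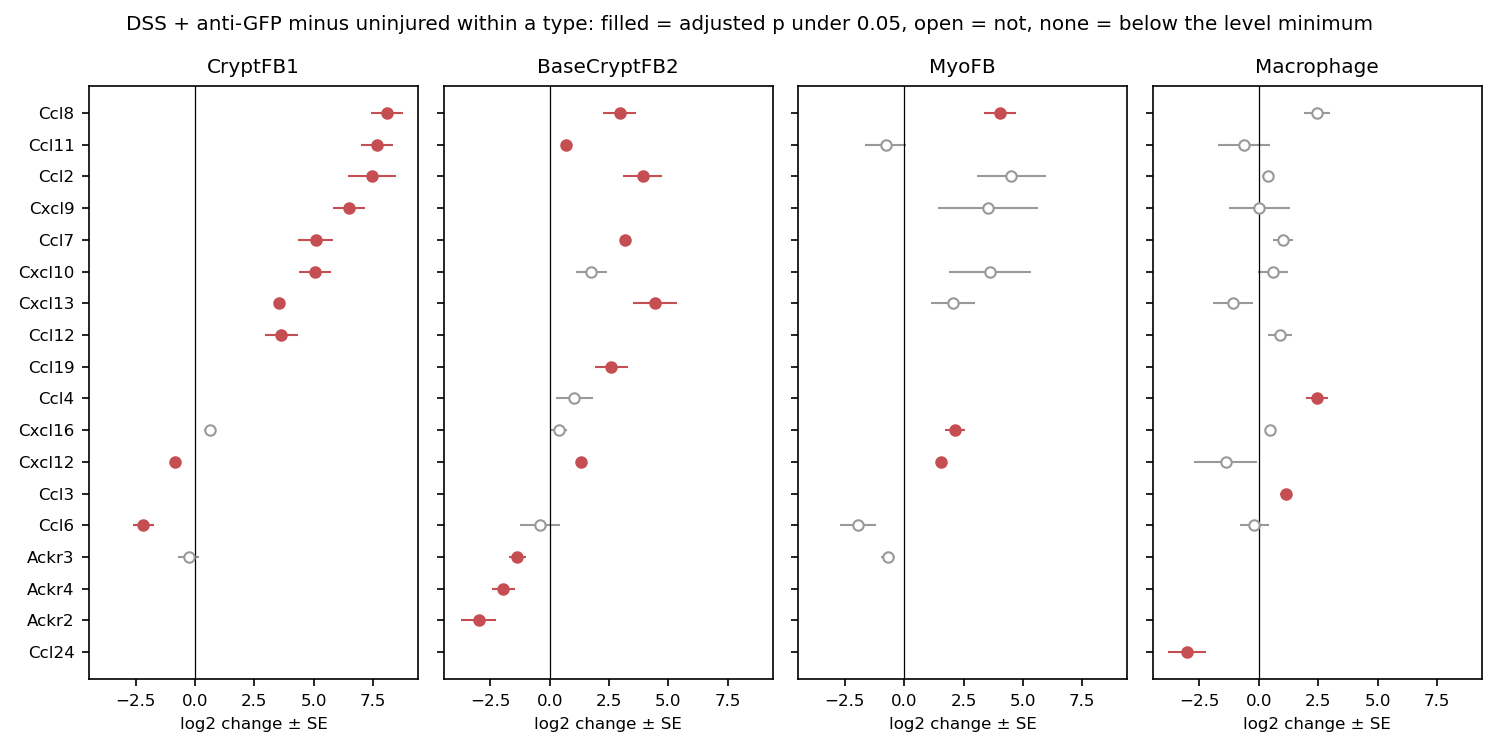
Log2 change (anti-GFP minus uninjured) with its SE for 18 members in CryptFB1, BaseCryptFB2, MyoFB and Macrophage; filled points passed limma's test, open points did not, and missing points were below the minimum level. Ccl2 stands at 7.46 in CryptFB1 and at 0.39 in Macrophage, and Cxcl12 lies below 0 in CryptFB1 and above it in BaseCryptFB2 and MyoFB.

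In the B or plasma class, 4 members passed of 26 tested, where 5.26% of all genes passed (12 mice had enough cells, 4 in each arm, with 1 of the anti-GFP mice at 24 h and 3 at 48 h). Ccr10 was 7.52, 7.29, 5.37 and 7.32 in uninjured and 2.33, 0.578, 0.585 and 0.201 in anti-GFP mice (-2.78 ± 0.39, SE; limma adjusted p = 2.9e-05). Cxcr4 was 0.282, 0.563, 1.29 and 1.33 in uninjured and 11.2, 6.13, 5.09 and 10.8 in anti-GFP mice (3.59 ± 0.36, SE; limma adjusted p = 2.75e-07). Every mouse of the one arm was apart from every mouse of the other, for both receptors.

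Ccr6 was 0.0604, 0, 0.0746 and 0.492 in uninjured and 1.97, 0.689, 1.10 and 2.45 in anti-GFP mice (4.41 ± 0.72, SE; limma adjusted p = 0.000267). Cxcr5, which reads Cxcl13, was 0.229, 0, 0.638 and 0.310 in uninjured and 2.44, 3.74, 1.69 and 4.62 in anti-GFP mice (4.20 ± 0.89, SE; limma adjusted p = 0.023). The groups were apart for both, and Cxcr5 lost its call without uninjured mouse 1 (0.0677) or 2 (0.147) at 48 h. Plasma_IgA cells were a median of 84.5% of this class in uninjured mice. The median was 20.8% over all 6 anti-GFP mice, including those with too few cells for the fit. In the fitted anti-GFP mice the share was 20.9% in mouse 3 at 24 h and 7.5% to 20.6% at 48 h. The plasma-cell marker list summed to 2831 to 3735 and 401 to 1201, and the B-cell list to 10.9 to 19.5 and 33.9 to 51.6. The part of this shift in the receptor values was not tested, and no single type of the class had enough cells in enough mice for a fit.

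T lymphoid cells gave 0 of 34 members by limma, where 1.83% of all genes passed, in a fit of 15 mice with 3 uninjured mice. At an unadjusted p under 0.05 there were 7, and limma-voom on UMI sums also gave 0. Ccl5 was 15.998, 16.1 and 11.2 in uninjured and 4.65 to 12.6 (median 8.87) in anti-GFP T lymphoid cells (-0.90 ± 0.32, SE; limma adjusted p = 0.154). Xcl1 differed by 0.99 ± 0.75 (SE; limma adjusted p = 0.661). Cxcr3 and Cxcr6, whose ligands rose in fibroblasts, differed by 0.01 (limma adjusted p = 1) and -0.56 (0.572), and the gut-homing Ccr9 differed by 1.89 ± 0.70 (0.178). The T lymphoid share of Ccl5 was held by TcellCD8_NK cells at 85.9% of all normalized Ccl5 UMIs in uninjured and 45.4% in anti-GFP mice, while myeloid cells gave 2.99% and 46.8%.

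In endothelial cells 1 of 20 members passed, where 3.26% of all genes passed. Ackr2 was 0.138, 0.0778, 0.254 and 0.130 in uninjured and 0.325 to 1.21 (median 0.5681) in anti-GFP mice, apart by 2.08 ± 0.34 (SE; limma adjusted p = 0.000193). LymphEndo cells, where Ackr2 was highest, were 18.6% to 20.6% of endothelial cells in uninjured and 13.5% to 37.2% in anti-GFP mice. LymphEndo cells gave 35.4% of all Ackr2 UMIs in uninjured and 88.9% in anti-GFP mice. Ccl21a was 8.93, 16.5, 14.8 and 13.3 in uninjured and 20.5 to 107 (median 31.1) in anti-GFP endothelial cells, without overlap, and missed the threshold (1.63 ± 0.46, SE; limma adjusted p = 0.0883).

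In the epithelium 1 of 15 members passed, where 23.3% of all genes passed (10.8% higher and 12.5% lower). The members' median was 0.81 against 0.00 over all genes tested. That median includes members that entered the test through mice given DSS. Among them were Ccl3 (pooled level 0.0008 in uninjured and 0.119 in anti-GFP mice) and Cxcr2 (0.00147 and 0.125). Cx3cl1 was 0.230, 0.309, 0.262 and 0.250 in uninjured mice. In anti-GFP mice it was 0.354, 0.408 and 0.442 at 24 h and 0.476, 0.355 and 0.409 at 48 h. The arms did not overlap, with a change of 0.61 ± 0.13 (SE; limma adjusted p = 0.00292). The epithelium gave 93.7% of all Cx3cl1 in uninjured and 72.6% in anti-GFP mice.

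This rise moved with 4 annotated types whose names begin with Alt. They were 3.68% to 10.2% of epithelial cells in uninjured mice, 33.9% to 55.4% in anti-GFP mice and 15.9% to 36.4% in SZN-1326-p mice. They held 2.30% to 11.6%, 63.6% to 81.6% and 39.4% to 66.5% of epithelial Cx3cl1 in the same order. Cx3cl1 outside these types was 0.243 to 0.314 in uninjured and 0.168 to 0.261 in anti-GFP mice, and without them the change turned to -0.29 and did not pass limma's test (adjusted p = 0.146).

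Within single epithelial types Cx3cl1 did rise. In AltEnteroPC it was 0.148, 0.0744 and 0.141 in the 3 uninjured mice with enough cells and 0.440 to 0.702 (median 0.533) in anti-GFP mice (2.06 ± 0.25, SE; limma adjusted p = 2.89e-05; 14 members tested, 18.7% of all genes passed). In TA2, transit-amplifying cells, it was 0.0432, 0.0395, 0 and 0.0855 in uninjured and 0.151 to 0.304 in 4 anti-GFP mice (2.64 ± 0.56, SE; limma adjusted p = 0.0106; 14 members tested, 4.78% passed). The arms were apart in both types. In AltEnterocyte, present after DSS, Cx3cl1 was 0.870 to 1.14 in anti-GFP mice, with no uninjured mouse to compare. The neutrophil list in the epithelium summed to 0.00624 to 0.00871 in uninjured and 0.0786 to 37.2 in anti-GFP mice, the highest in mouse 1 at 48 h.

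The other epithelial ligands did not pass. Ccl28 differed by 0.38 ± 0.17 (SE; limma adjusted p = 0.128), Ccl20 by 1.35 ± 0.60 (0.119), Ccl25 by 0.16 (0.572) and Cxcl16 by -0.49 ± 0.19 (0.0699). Epithelial Ccl6 differed by -0.09 (0.895), although the epithelium's share of all Ccl6 was 77.6% in uninjured and 9.18% in anti-GFP mice. By limma 0 members passed in AltEnterocyte2, BasalGoblet, StemCell, TcellCD8_NK and VascEndo, with 2 or 3 per type at an unadjusted p under 0.05, where 0.111%, 0.35%, 1.93%, 0.348% and 1.56% of all genes passed. For AltEnterocyte2 only uninjured mice at 48 h (23 and 71 cells) and anti-GFP mice at 24 h (28 to 77) had enough cells. DSS and time cannot be told apart there. StemCell rested on anti-GFP mouse 3 at 24 h (36 cells) and mouse 2 at 48 h (21). TcellCD8_NK rested on anti-GFP mice 1 and 2 at 48 h (39 and 26 cells).

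The second comparison asked what SZN-1326-p changes in injured mice, against anti-GFP at each time. It shares the anti-GFP mice with the DSS comparison. Epithelial Cx3cl1 was 0.250, 0.243 and 0.240 in SZN-1326-p mice at 24 h and 0.183, 0.188 and 0.211 at 48 h, below every anti-GFP mouse of its time. The change was -0.69 ± 0.16 (SE) at 24 h (limma adjusted p = 0.0147, where 10.1% of all genes passed, 5.89% higher and 4.25% lower). It was -1.05 ± 0.16 at 48 h (limma adjusted p = 0.000441, where 12.5% passed, 2.41% higher and 10.1% lower).

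Cx3cl1 was the only member called within any of the 6 classes at either time. For B or plasma cells at 24 h only 1 anti-GFP and 1 SZN-1326-p mouse had enough cells, so that this contrast sets 1 mouse against 1 mouse with the spread taken from the other groups. In endothelial, T lymphoid and B or plasma cells 0 members passed limma's test, with 0 to 6 at an unadjusted p under 0.05, where 0%, 0.0258% and 0.00923% of all genes passed at 48 h and 0% in each at 24 h. The 24 h call was lost without anti-GFP mouse 2 (0.0622), SZN-1326-p mouse 2 (0.0516) or SZN-1326-p mouse 3 (0.0560) at 24 h. Without the 4 Alt types the changes were -0.54 at 24 h and -0.58 at 48 h, and neither passed limma's test (adjusted p = 0.142 and 0.104). In those Alt types Cx3cl1 was 0.509 to 0.836 in anti-GFP and 0.376 to 0.520 in SZN-1326-p mice, and outside them 0.168 to 0.261 and 0.125 to 0.162. In AltEnteroPC it was 0.440 to 0.702 and 0.313 to 0.425, with -0.47 ± 0.28 (SE) at 24 h and -0.61 ± 0.28 at 48 h (limma adjusted p = 0.555 and 0.566).

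**Figure D4:**
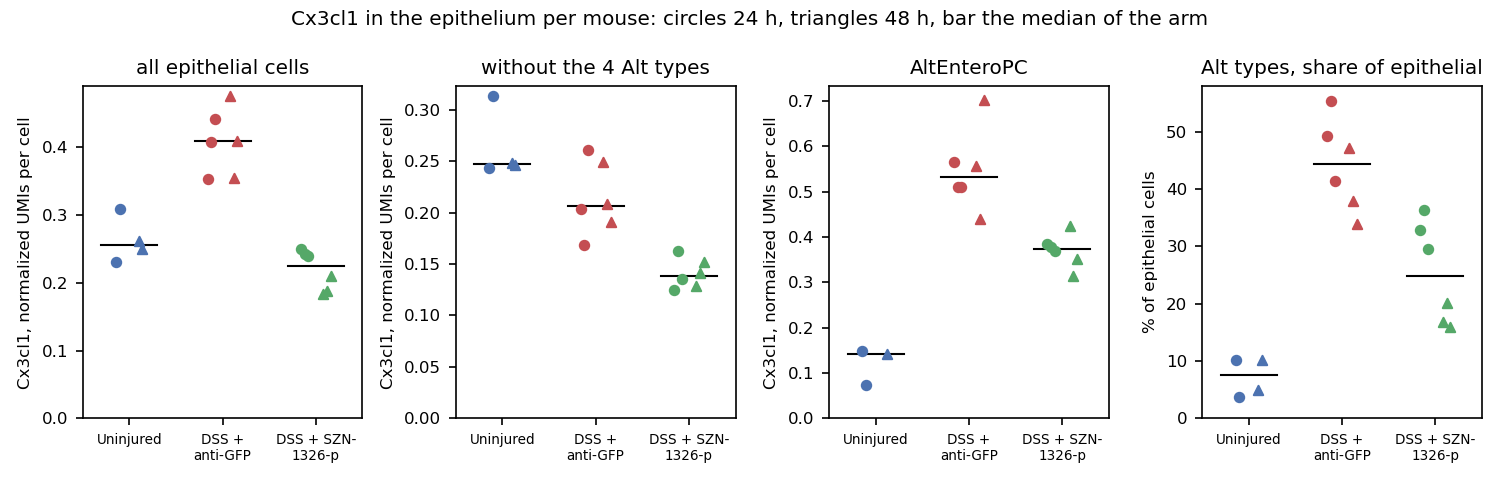
Cx3cl1 in each mouse, as mean normalized UMIs per cell, in all epithelial cells, in epithelial cells without the 4 Alt types and in AltEnteroPC, and the Alt types' share of epithelial cells (%). The 6 anti-GFP mice lie at 0.354 to 0.476 in all epithelial cells, above both other arms, and at 0.168 to 0.261 once the Alt types are left out.

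Over all cells, receptors of myeloid cells were lower with SZN-1326-p at 48 h. By limma 9 of 46 members were lower and 0 higher, where 13.9% of all genes passed (3.8% higher and 10.1% lower), and the members' median was -0.62 against -0.01 over all genes tested. At 24 h 0 members passed, where 0.579% of all genes passed; 7 had an unadjusted p under 0.05, and limma-voom on UMI sums called 2. Among the 9 were Ccr1, Ccr2, Ccr7, Cxcr1, Cxcr2, Ccl4, Ccl6 and Ccl9.

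Ccr1 over all cells was 2.95, 3.05 and 2.93 in anti-GFP mice at 48 h and 1.03, 0.783 and 0.726 in SZN-1326-p mice (-1.82 ± 0.23, SE; limma adjusted p = 0.000233). Ccr2 was 1.80, 1.53 and 3.03 against 0.7099, 0.906 and 1.05 (-1.20 ± 0.24, SE; limma adjusted p = 0.00433). No SZN-1326-p mouse reached an anti-GFP mouse of that time, and uninjured mice were lower still, at 0.111 to 0.179 for Ccr1 and 0.0638 to 0.118 for Ccr2.

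Ccl4 was 3.34, 4.29 and 2.67 against 2.02, 0.887 and 1.15 (-1.39 ± 0.28, SE; limma adjusted p = 0.00494). Ccl9 differed by -1.46 ± 0.24 (0.00111) and Ccl6 by -1.46 ± 0.30 (0.00535, and 0.162 with limma-voom). Cxcr2 was 2.48, 2.64 and 1.43 against 0.748, 0.438 and 0.407 (-2.02 ± 0.64, SE; limma adjusted p = 0.0496).

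Cxcr2, Cxcr1 (-1.35 ± 0.42, SE; limma adjusted p = 0.0456, and 0.06396 with limma-voom) and Ccr7 (-1.22 ± 0.38; 0.0459) sat at the threshold. Cxcr2 lost its call without any 1 of 13 libraries (0.0585 to 0.155), that is, every library left out except both uninjured mice and anti-GFP mouse 2 at 24 h. Cxcr1 lost it without any 1 of 11 (0.0511 to 0.161), every library except SZN-1326-p mouse 3 and all 3 anti-GFP mice at 24 h and anti-GFP mouse 3 at 48 h. Ccr7 lost it without any 1 of 11 (0.0514 to 0.204), every library except both uninjured mice and anti-GFP mice 1 and 3 at 24 h and SZN-1326-p mouse 1 at 48 h.

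The share of myeloid cells moved the same way. Myeloid cells were 30.0% to 42.2% of cells in anti-GFP mice at 48 h and 13.9% to 14.7% in SZN-1326-p mice, and 19.5% to 28.9% and 14.9% to 18.4% at 24 h. Within the myeloid class 0 of 35 members passed limma's test at either time, where 0% of all genes passed at 24 h and 0.0182% at 48 h, with 1 and 3 members at an unadjusted p under 0.05. Myeloid Ccr1 differed by -0.60 ± 0.21 (SE) at 48 h (limma adjusted p = 0.44). Myeloid Ccr2 was 4.86 to 8.34 in anti-GFP and 4.34 to 7.43 in SZN-1326-p mice over both times, and Cxcr2 was 3.39 to 8.68 and 2.89 to 7.04. The arms overlapped for both.

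**Figure D5:**
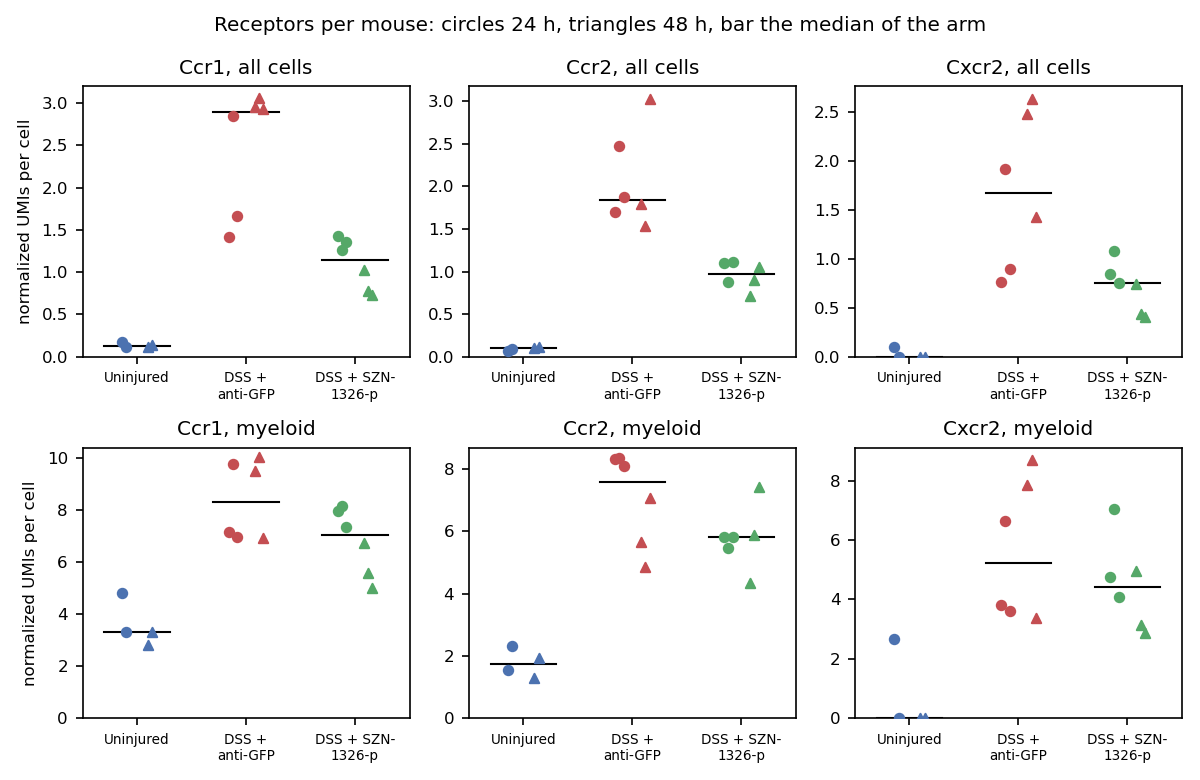
Ccr1, Ccr2 and Cxcr2 in each mouse as mean normalized UMIs per cell on linear axes from 0, over all cells above and within myeloid cells below. Over all cells Ccr1 lies at 2.93 to 3.05 in anti-GFP and 0.726 to 1.03 in SZN-1326-p mice at 48 h; within myeloid cells the ranges over both times are 6.93 to 10.0 and 5.01 to 8.14.

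Within fibroblasts 0 of 23 members tested, ligands and receptors together, passed limma's test at either time, where 0% and 0.117% of all genes passed. At an unadjusted p under 0.05 there were 1 and 4 members. Over the 6 classes together, limma-voom on UMI sums called 1 member at each time. Fibroblast Ccl7 differed by -1.16 ± 0.30 (SE) at 48 h (limma adjusted p = 0.156), Ccl12 by -1.78 (0.329), Ccl11 by -0.82 (0.342) and Cxcl10 by -1.16 (0.539). Fibroblast Ccl2 was 1.00 to 4.14 in anti-GFP and 0.988 to 3.40 in SZN-1326-p mice. In CryptFB1, Ccl2 was 0.838 to 12.3 and 0.202 to 6.65, and Ccl8 was 2.10 to 10.3 and 1.05 to 7.95. The arms overlapped in each case.

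Over both times, 0 members passed limma's test within any of 11 types with enough cells, where 0% to 1.38% of all genes passed and 0 to 4 members per type had an unadjusted p under 0.05. The change with SZN-1326-p at 48 h minus that at 24 h passed limma's test for 0 members in the 6 classes and over all cells, with 0 to 7 members at an unadjusted p under 0.05, and limma-voom gave 0 in the classes (0.139% of all genes passed in the epithelium and 0% elsewhere). By single times, Ccl6 in ActNeutrophil cells at 48 h was 18.6, 33.9 and 19.4 in anti-GFP and 24.5, 13.0 and 7.71 in SZN-1326-p mice (-0.77 ± 0.21, SE; limma adjusted p = 0.0293), with overlapping groups (0.871% of all genes passed).

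Genes that act around the members were followed with 2 lists. Of a list of 30 chemokine signalling genes (G-protein subunits, regulators and proteases among them), 28 were tested over all cells and 21 were higher and 1 lower with DSS by limma (of all genes 24.6% were higher and 23.2% lower), and 0 higher and 17 lower with SZN-1326-p at 48 h (3.8% and 10.1% of all genes). The list's median was 1.28 with DSS, against 0.01 over all genes tested, and -0.75 with SZN-1326-p at 48 h, against -0.01. Within fibroblasts 6 of 20 tested were higher with DSS (Gng12, Gng2, Pf4, Rgs1, Rgs16 and Rgs2), where 22.5% of all genes passed and 12.4% were higher. The list's median there was 0.09 against 0.01. Within myeloid cells 13 of 28 were higher and 2, Pf4 and Rgs1, lower, where 18.6% of all genes were higher and 12.6% lower, with a list median of 0.41 against 0.01. In the epithelium 12 of 21 were lower and 1, the chemokine-cleaving protease Dpp4, higher with SZN-1326-p at 48 h, where 10.1% of all genes were lower and 2.41% higher. Of 20 leukocyte adhesion genes, 19 were tested over all cells and 15 were higher and 2, Cd34 and F11r, lower with DSS (list median 1.73), and 6 were lower with SZN-1326-p at 48 h, among them the integrin genes Itga4, Itgal, Itgam and Itgb2 and the selectin ligand Selplg (list median -0.43). The endothelial adhesion molecule Vcam1, which lets rolling leukocytes stop, was higher with DSS in fibroblasts and in endothelial cells. It was lower in the myeloid class but higher within its Macrophage type, whose share of the class was 70.7% to 78.4% in uninjured and 6.42% to 20.0% in anti-GFP mice.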

How the data were processed

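Sorted colon cells of 16 mice were profiled with the 10x Genomics single-cell chemistry, version 3. Cell Ranger 3.0.2 and the genome build mm10 were used by the authors, per the submitters' processing notes. The authors deposited values in the unit log2: a cell's UMI count divided by its size factor, plus 1, on the log2 scale. Un-logging the 60867816 non-zero entries gave whole UMIs in 100% of them, within a tolerance of 1e-06 and with a largest deviation of 5.3e-10. The deposited annotation of the authors (unit other, text labels) gave each cell its mouse, group and type. It called the treated group SWAP, and the sample names identify this group as SZN-1326-p. The authors' size factor method, cell filters and treatment of doublets are not given in the sources used here.

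Normalized UMIs were averaged over cells per mouse and class or type with at least 20 cells. The log2 of this mean plus 0.01 was tested with limma 3.58.1 (trend, robust) in R 4.3.3, after a script check on simulated data, for genes at 0.05 or more in at least 2 mice. Where every mouse had enough cells, all 16 mice entered 1 fit of 6 groups (10 residual degrees of freedom). Other fits held fewer mice, such as 15 in T lymphoid cells (9 degrees) and 12 in B or plasma cells (6 degrees). Benjamini-Hochberg adjustment was at 0.05 over all genes kept. Log2 changes are on this scale with the added 0.01 and understate changes of low genes. A few types with too few mice per time were fitted by arm. The single-cell deposit gives precision through the number of cells and UMIs, listed in the report, and intervals on sparse members cover counting error only. The ratios with these intervals are of raw UMIs per cell, without size factors, so that they also carry differences in depth between the arms. Levels and promoters were computed with Python 3.11.15, numpy 2.4.6, pandas 2.3.3 and scipy 1.17.1. Gene positions came from GENCODE on mm10.

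The members, lists, markers and named genes (every member called in a class or type, the members highest in a class, and the ligand or receptor paired with a called member) were chosen with earlier results of these data known. Alternatives were other filters, pseudocounts and scalings, limma-voom on UMI sums, the compared groups alone, minimum cell numbers, mice left out, and a replicate block. Chosen after the data were seen were a term for 4 libraries, the epithelium without the Alt types, a cell filter on fewer markers, and tests of differences between classes. Some genes that entered the counts are not reported here by name.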

Additional observations from a re-analysis of the deposited data

Results flagged for a closer look

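Each set of values of 1 member in 1 class or type and 1 arm of 4 to 10 mice was tested for a mouse set apart from the rest (Dixon's test). Of 191 such sets, 10 had one (5.24%). For normally spread values chance gives about 1 in 20, which does not hold for values tied at 0. Where all other mice lie at 0 the outcome is fixed, as for myeloid Cxcr2 and Ccr9 and for Ccl8 in CryptFB1. Fibroblast Ackr3 was 0.730 in uninjured mouse 1 at 24 h, against 1.65 to 1.69 in the others, and 0.320 in mouse 1 of the 24 h SZN-1326-p group, against 0.576 to 0.796. Both of these libraries are among the 4 with more long genes. Fibroblast Cxcl10 was 2.16 in mouse 3 of the 24 h SZN-1326-p group, against 0.616 to 0.859. Ccr10 in B or plasma cells was 5.37 in uninjured mouse 1 at 48 h, against 7.29 to 7.52. Myeloid Ccl2 was 2.93 in mouse 3 of the 24 h SZN-1326-p group, against 1.56 to 1.86, and myeloid Ccr7 was 0.487 in mouse 2 of the 24 h SZN-1326-p group, against 0.959 to 1.38. Myeloid Cxcr2 was 2.65 in uninjured mouse 1 at 24 h and Ccr9 was 0.0255 in uninjured mouse 2 at 24 h, with the other uninjured mice at 0. In CryptFB1, Ccl2 was 0.202 in mouse 3 of the 48 h SZN-1326-p group, against 2.60 to 6.65, and Ccl8 was 0.118 in uninjured mouse 1 at 24 h, with the other uninjured mice at 0.

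The DSS change differed between fibroblasts and myeloid cells (fibroblast minus myeloid, log2, limma adjusted over all genes) for 9 members. These were Ccl2 (4.08, adjusted p = 4.08e-05), Ccl7 (3.89, 4.21e-06), Ccl8 (3.52, 0.000992), Ccl12 (3.87, 0.00325), Cxcl13 (4.22, 0.000976), Cxcl16 (1.43, 0.00519), Cx3cl1 (1.42, 0.0207), Cx3cr1 (3.88, 0.000534) and Ccl6 (-2.35, 0.00465). CryptFB1 minus Macrophage differed for 7: Ccl2 (7.07, limma adjusted p = 0.00143), Ccl7 (4.06, 0.0121), Ccl8 (5.64, 0.00269), Ccl11 (8.30, 0.0214), Cxcl9 (6.46, 0.0129), Cxcl10 (4.46, 0.0178) and Cxcl13 (4.62, 0.0175). CryptFB1 minus BaseCryptFB2 differed for 3: Ccl8 (5.14, limma adjusted p = 0.0197), Ccl11 (6.97, 0.000612) and Cxcl12 (-2.16, 0.0146).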

How the results depend on the processing

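With 1 mouse left out at a time, members called with DSS ranged from 29 to 36 in all cells, 10 to 14 in fibroblasts and 16 to 20 in myeloid cells. They ranged from 1 to 4 in the epithelium, 1 to 2 in endothelial cells, 0 to 1 in T lymphoid cells and 3 to 5 in B or plasma cells. Within types the range was 21 to 30 (28 with all mice). At 24 h the only uninjured mouse with enough T lymphoid cells was mouse 2. The only anti-GFP mouse with enough B or plasma cells at 24 h was mouse 3. Leaving out either left no DSS fit in that class, so the T lymphoid and B or plasma ranges do not cover it. With SZN-1326-p the ranges were 0 to 2 over the 6 classes and 0 to 2 in all cells at 24 h, 1 to 3 and 6 to 10 at 48 h, 0 for the difference between times and 0 to 1 within types. The DSS count in the epithelium was 2 with limma-voom, 2 without cells with markers of another lineage, 3 with the term for 4 libraries and 5 without the Alt types, and in B or plasma cells it was 11 with limma-voom. With the compared groups only it was 1 in T lymphoid cells. With SZN-1326-p at 24 h the count over the 6 classes was 0 with the compared groups only and 0 without the 2 mice with a high mitochondrial share, and in all cells it was 2 with limma-voom. At 48 h it was 3 with no filter, 2 with a filter at 0.02, 4 with the compared groups only and 2 with the term for 4 libraries over the classes, and 14 in all cells with that term. The cause of these shifts was not tested. Epithelial Cx3cl1 with DSS reversed to -0.293 without the Alt types, which were chosen after seeing the data.

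Same-numbered mice of the anti-GFP and SZN-1326-p arms correlated at -0.52 to 0.35 over all cells in their deviations from the group means, so the numbers were not taken to pair the mice. A replicate block gave 8 members with DSS in the epithelium, 2 in endothelial cells and 2 in T lymphoid cells. With SZN-1326-p the replicate block gave 2 over the classes and 3 in all cells at 24 h, 5 over the classes at 48 h, 2 for the difference between times and 1 within types. Under the block the limma adjusted p was 0.06708 for Cx3cl1 in TA2, 0.05425 for Ccl4 and 0.05458 for Ccl24 in Macrophage and 0.07085 for Ccl11 in BaseCryptFB2 with DSS, and 0.05081 for Ccr7, 0.05887 for Cxcr1 and 0.06815 for Cxcr2 over all cells with SZN-1326-p at 48 h. The planned removal of every cell with 2 markers of another lineage was not run, since it would drop 55.1% of all cells and 88.2% of fibroblasts. Sparse receptors such as Ccr8, Ccr3 and Cxcr1 are limited by depth, and changes in them may lie below what these libraries resolve.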
